A study of Mus musculus with 24 samples.

Results

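The comparison was between CT26.WT tumours grown in Balb/c mice and in NSG mice, with both hosts on the high-methionine diet (0.86% methionine), fed for 3 to 4 weeks. It took in all 12 libraries that the labels place on this diet, of 24 in the series, and all genes with a count in any library, which were 38019 of the 55202 named in the deposited table. CT26.WT is a mouse colon carcinoma line derived from a Balb/c animal, and it was grafted here as wild-type cells. The Balb/c hosts are immunocompetent. The NSG hosts carry the NOD background with the scid mutation of Prkdc and a null allele of Il2rg, and so lack mature T, B and NK cells while keeping macrophages, monocytes and granulocytes. The hosts differed in strain, in immune deficiency and in whether the graft matched the host strain, and these cannot be told apart here. Another 6 Balb/c and 6 NSG tumours came from mice on a methionine-restricted diet (0.172% methionine) and are given beside the named genes, with no library shared between diets.

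Rejection of a grafted tumour rests on lymphocytes that kill through perforin and granzymes and that secrete interferon-gamma. Interferon-gamma acts on genes through GAS elements and, by way of interferon regulatory factors, through ISRE elements. The genes it induces include the chemokines that call in more lymphocytes, the guanylate-binding proteins and immunity-related GTPases, and the machinery of antigen presentation. Tumours also hold macrophages, monocytes, mast cells and blood vessels of the host, whose transcripts are measured in bulk together with those of the carcinoma cells.

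The promoters of 5 interferon-gamma-induced genes are shown here because this group carried some of the largest differences. A further reason is that some members of the group passed the test and others did not. The windows run from 250 bases before the transcription start to 50 bases after it, 5′ to 3′ on the strand of the gene, from RefSeq on GRCm38.p6. Capitals mark matches, on either strand, to the GAS letters TTCNNNGAA or to the ISRE letters, which are GAAA, any 2 bases and GAAA again. Irf8 and Cxcl9 rose in Balb/c tumours and the other 3 genes did not pass the test. Missing the test does not mean that their differences were smaller.
Irf8, chr8:120736108-120736407, plus strand: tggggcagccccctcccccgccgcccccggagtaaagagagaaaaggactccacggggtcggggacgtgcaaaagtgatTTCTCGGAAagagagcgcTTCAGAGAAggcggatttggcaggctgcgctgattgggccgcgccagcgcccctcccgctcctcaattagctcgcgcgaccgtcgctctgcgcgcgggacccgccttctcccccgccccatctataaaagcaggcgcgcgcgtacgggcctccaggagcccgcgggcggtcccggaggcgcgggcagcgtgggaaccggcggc
Cxcl9, chr5:92328030-92328329, minus strand: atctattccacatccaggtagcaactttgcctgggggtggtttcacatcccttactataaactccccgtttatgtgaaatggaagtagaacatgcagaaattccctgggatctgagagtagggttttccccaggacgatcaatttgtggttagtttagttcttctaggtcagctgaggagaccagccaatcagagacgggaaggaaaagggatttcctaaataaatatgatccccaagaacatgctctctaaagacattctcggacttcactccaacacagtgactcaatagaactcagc
Igtp, chr11:58199306-58199605, plus strand: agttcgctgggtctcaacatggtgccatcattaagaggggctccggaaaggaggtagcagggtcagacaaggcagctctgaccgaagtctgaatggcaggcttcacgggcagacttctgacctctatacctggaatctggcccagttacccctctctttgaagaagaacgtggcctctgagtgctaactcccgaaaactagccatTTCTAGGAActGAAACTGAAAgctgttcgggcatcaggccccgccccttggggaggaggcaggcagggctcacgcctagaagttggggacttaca
Irgm2, chr11:58214727-58215026, plus strand: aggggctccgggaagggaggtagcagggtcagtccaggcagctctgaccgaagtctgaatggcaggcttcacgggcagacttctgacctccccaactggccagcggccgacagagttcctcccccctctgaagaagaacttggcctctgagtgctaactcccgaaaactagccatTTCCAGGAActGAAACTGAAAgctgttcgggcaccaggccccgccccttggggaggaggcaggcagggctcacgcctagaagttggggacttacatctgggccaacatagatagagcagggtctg
Tgtp2, chr11:49064163-49064462, minus strand: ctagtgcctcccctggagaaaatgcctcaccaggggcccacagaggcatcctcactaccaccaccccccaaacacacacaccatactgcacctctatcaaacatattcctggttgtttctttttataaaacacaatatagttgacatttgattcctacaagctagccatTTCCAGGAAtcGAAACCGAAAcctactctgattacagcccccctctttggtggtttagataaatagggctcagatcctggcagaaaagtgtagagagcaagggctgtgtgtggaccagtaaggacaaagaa
The Irf8 window shown held 2 GAS matches, which began 171 and 153 bases before the start, and no ISRE match. The window of a second Irf8 start (chr8:120738389-120738688), not shown, held neither set of letters. The Cxcl9 window held neither set of letters. In Igtp, Irgm2 and Tgtp2 a GAS match was followed, 2 bases on, by an ISRE match, and the same spacing was found in Tgtp1. This arrangement was chosen after the windows had been seen, and it occurred in 5 of 32851 windows in all. Of 20 windows of the interferon-gamma list, 55% held the ISRE letters, against 3.44% of all windows, and 40% held the GAS letters, against 8.3%. Windows were at hand for 17 of the 32 list members, and of the 9 called members only for 2, Irf8 and Cxcl9. These matches describe the letters of the windows only.

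Libraries of this comparison held 32760046 to 57162217 assigned counts in Balb/c tumours and 38777554 to 49310165 in NSG tumours. Libraries 19 and 23 (Pearson's r across genes 0.9987) and libraries 20 and 24 (0.9981) were closer than any other pair (at most 0.9921), so the libraries of a pair were averaged and entered as 1 tumour, written 19-23 and 20-24. This left 4 Balb/c and 6 NSG tumours. The labels do not state that each library came from its own animal. The p-values rest on variation pooled over the 22 tumours of all 4 groups, on both diets, and this variation may be technical. The mice are labelled male, yet 4 Y-linked genes together had 0 to 5 counts in each of the 24 libraries, beside 624 to 2510 counts of the leukocyte gene Ptprc. Xist, the X-inactivation transcript, had 726 to 4820 counts in these libraries. The source of this conflict with the label was not tested. The colon carcinoma label was read against colon epithelium markers. Krt20 had 1717 to 3932 normalised counts in Balb/c tumours and 2319 to 8716 in NSG tumours, while the epithelial adhesion gene Epcam had 2.37 to 70.8 in Balb/c tumours and 0 to 77.0 in NSG tumours. Of 19 such markers 0 were called, with 1 at an unadjusted p under 0.05, and voom called 0.

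Limma called 963 genes at an adjusted p of 0.05, of which 779 were higher in Balb/c tumours (2.05% of all tested) and 184 were lower (0.484%). The called rises had a median of 0.90 on the deposited log2 scale and the called falls a median of -0.60, while the median over all genes was 0.00. Rises of more than 1 numbered 300 and falls of more than 1 numbered 22. The 2 groups did not overlap for 1618 genes (4.26%), with Balb/c tumours above for 1046 (2.75%) and below for 572 (1.5%). The number of calls depended on single tumours and on how the pairs were handled. It was 526 without Balb/c tumour 19-23, 620 without Balb/c tumour 22 and 515 with every named gene row in the fit. It was 1673 with library weights and 1824 with the 24 libraries kept apart. With the fit on the 2 compared groups alone it was 925, of which 730 were among the 963.

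**Figure D1:**
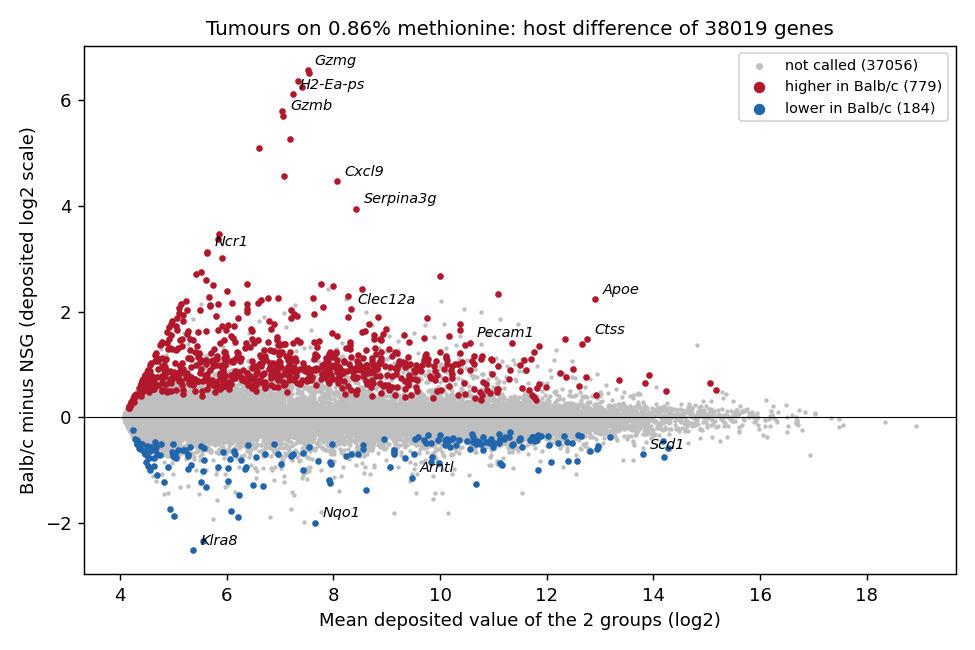
Difference between Balb/c and NSG tumours (deposited log2 scale) against the mean deposited value of both groups for 38019 genes on 0.86% methionine; red points are the 779 genes called higher in Balb/c tumours, blue points the 184 called lower and grey points the rest. The rises above 5 on the vertical axis are 7 granzymes, Prf1 and H2-Ea-ps, and the furthest called fall is that of Klra8 at -2.51.

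Of the genes of killer lymphocytes, the granzymes named below, Prf1 and Ncr1 were present in all 4 Balb/c tumours and near absent from all 6 NSG tumours. Of 18 tested genes of the cytotoxic granule and NK list 15 rose (83.3%, against 2.05% of all genes) and 0 fell. The median difference was 1.98, against 0.00 over all genes, and 15 were called whichever tumour was left out. The list as a whole was not absent from NSG tumours: its summed normalised counts were 559 to 1410 there, against 2871 to 7686 in Balb/c tumours. In bulk tissue, fewer cells of a type and less RNA per cell cannot be told apart. Gzmg, a granzyme gene on chromosome 14 (56156582 to 56159579, mm10), had 639, 977, 2723 and 5368 normalised counts in Balb/c tumours 19-23, 20-24, 21 and 22, against 0 to 2.05 in NSG tumours. The groups were far apart, and tumour 22 was highest and tumour 19-23 lowest (difference 6.57 ± 1.05, SE, adjusted p = 0.00138). Perforin, which opens pores in target cells, is the product of Prf1, which had 602, 441, 1315 and 2221 in the same Balb/c tumours, against 0 to 1.66 in NSG tumours (5.79 ± 0.88, adjusted p = 9.86e-04). The neighbouring granzymes Gzmb, Gzmc, Gzmd, Gzme and Gzmf were likewise highest in tumour 22, at 1943 to 4696 normalised counts, and at most 7.90 in NSG tumours. These genes are near-identical copies in part, so reads could be split among them. Gzma, which lies apart on chromosome 13, had another order among the hosts' tumours: 1054, 351, 323 and 680 in Balb/c tumours, highest in tumour 19-23, against 0 in every NSG tumour (5.09 ± 0.60, adjusted p = 6.73e-05). Ncr1, the NK receptor NKp46, had 134, 95.4, 76.1 and 177 in Balb/c tumours and 0 in every NSG tumour (3.13 ± 0.33, adjusted p = 7.09e-06). On 0.172% methionine, the differences were 7.24 for Gzmg, 6.18 for Prf1, 4.81 for Gzma and 2.79 for Ncr1, and all 4 genes were called higher there too, as were 1.44% of all genes. With voom on the recovered counts the adjusted p was 0.0599 for Gzmg, 0.0955 for Gzmd and 0.247 for Gzme, so these 3 calls were lost there.

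Receptors and adhesion molecules that lymphocytes share followed. Of 16 tested cytokine receptors of the common gamma chain and lymphocyte list 9 rose (56.25%, against 2.05% of all genes). This number was 3 without tumour 19-23, 4 without tumour 22 and 5 without NSG tumour 8. Il2rb, the beta chain that binds interleukins 2 and 15, had 573, 394, 631 and 1035 normalised counts in Balb/c tumours, against 3.70 to 5.13 in NSG tumours (4.56 ± 0.56, adjusted p = 9.28e-05). It was thus close to absent in tumours of hosts without T and NK cells. Il2rg, the common gamma chain mutated in NSG mice, was less separated, with 1602, 1542, 1265 and 1729 in Balb/c tumours, against 627 to 1200 in NSG tumours (0.75 ± 0.19, adjusted p = 0.0283, and 0.117 without tumour 19-23), and lost its call on leaving out any of 6 of the 10 tumours. Graft cells carry an intact Il2rg gene, and reads of graft and host cannot be told apart here. Itgal, the integrin chain CD11a, had 613, 282, 428 and 786 in Balb/c tumours, against 30.7 to 133 in NSG tumours (2.53 ± 0.35, adjusted p = 2.95e-04). Ltb, lymphotoxin beta, had 51.9 to 127 in Balb/c tumours, against 0 to 3.95 in NSG tumours (2.27 ± 0.23, adjusted p = 2.81e-06). Of the T cell list 18 of 22 genes rose (81.8%), 13 without tumour 19-23 and 13 without tumour 22. Trdc, the constant region of the delta chain, was among them, with 33.5 to 83.3 normalised counts in Balb/c tumours, against 0 to 0.926 in NSG tumours. Of 22 tested B and plasma cell genes 2 rose (9.09%), both at low counts. The number was 1 without tumour 19-23 or without tumour 22 and 4 without NSG tumour 12. Igkc, the kappa constant region, had 3.02 to 38.4 in Balb/c tumours, against 0 to 1.82 in NSG tumours (0.98 ± 0.23, adjusted p = 0.0171), and it was the gene that lost its call without either (adjusted p of up to 0.128).

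**Figure D2:**
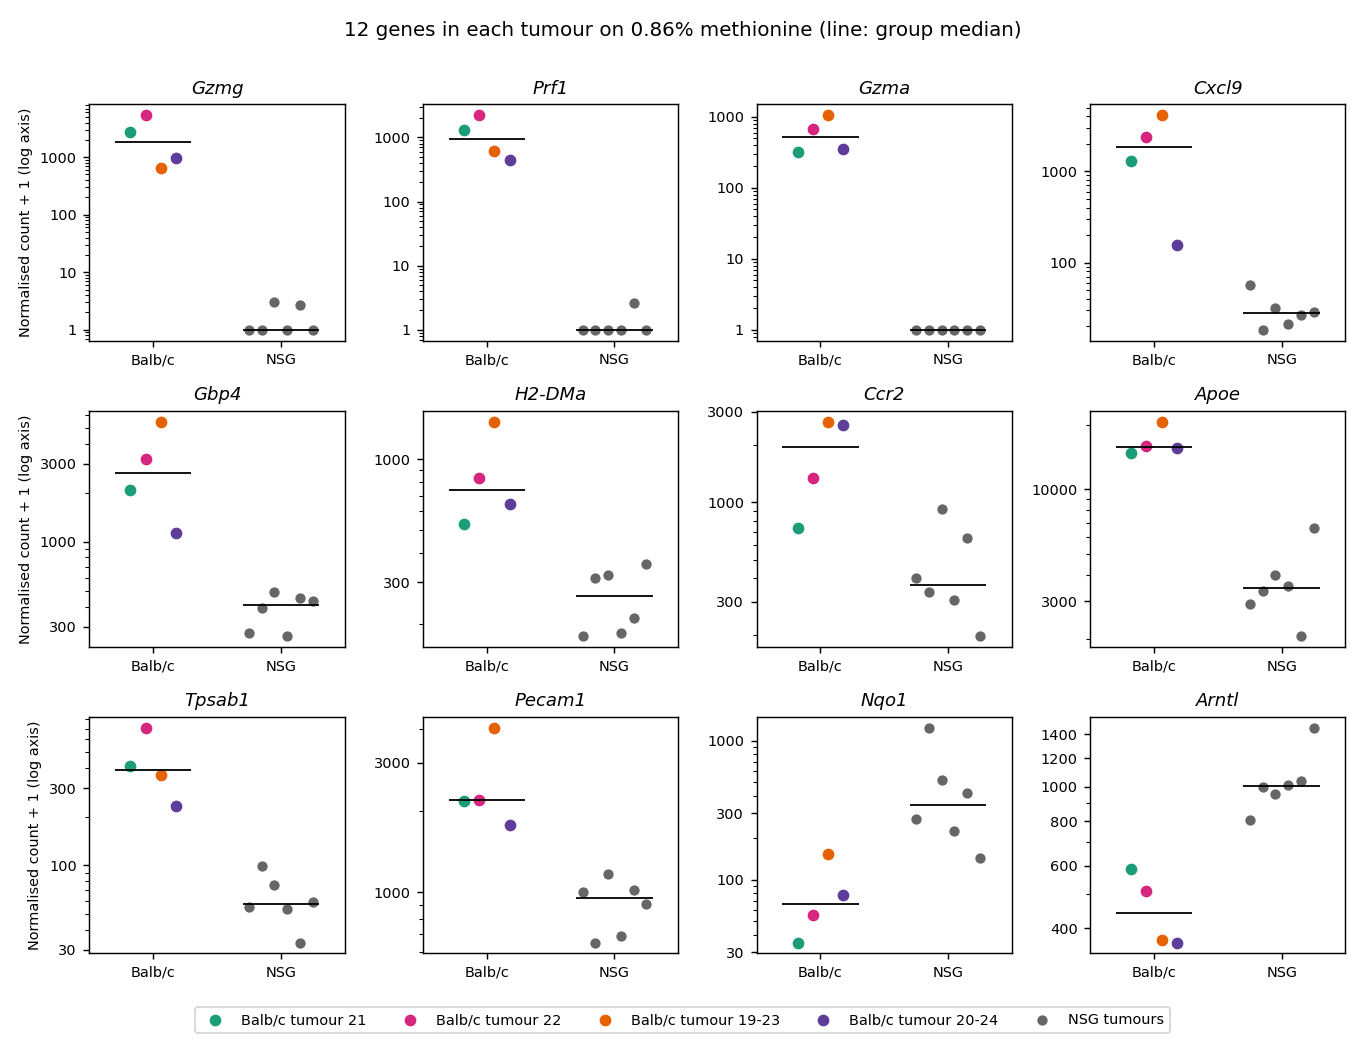
Normalised count plus 1 (log axis) of 12 genes in each tumour on 0.86% methionine; coloured points are the 4 Balb/c tumours, grey points the 6 NSG tumours and lines the group medians. Tumour 22 is highest for Gzmg, Prf1 and Tpsab1, and tumour 19-23 for Gzma, Cxcl9, Gbp4, H2-DMa, Apoe and Pecam1; Ccr2 and Nqo1 overlap between the hosts.

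Genes induced by interferon-gamma were mostly higher in Balb/c tumours, fewer of them passed the test, and the Balb/c tumours differed among themselves. Of 32 tested genes 9 rose (28.1%, against 2.05% of all genes) and 0 fell. An unadjusted p under 0.05 with a positive difference was found for 27 of the 32, and for 2700 of all 38019 genes. Every Balb/c tumour lay above the NSG range for 23 of the 32, against 2.75% of all genes. The median difference was 1.16, and 0.83 on the restricted diet. The count fell to 2 without tumour 19-23 and to 3 without tumour 22, and it was 12 without tumour 20-24. Ifng itself had 20.2, 0.899, 2.21 and 4.60 normalised counts in Balb/c tumours, against 0 in every NSG tumour (0.78 ± 0.19, adjusted p = 0.0268, 0.0689 without tumour 22 and 0.198 without tumour 19-23), and it was 0.0536 without NSG tumour 8. Cxcl9, the chemokine ligand of CXCR3 on activated T cells (chromosome 5), had 4122, 153, 1303 and 2387 in Balb/c tumours, against 17.3 to 56.3 in NSG tumours. Tumour 20-24, with the lowest Ifng, also had the lowest Cxcl9, though still above every NSG tumour (4.47 ± 0.79, adjusted p = 0.00297). Cxcl11, a second CXCR3 ligand, had 608, 61.5, 92.7 and 97.5 in Balb/c tumours, against 5.92 to 21.3 in NSG tumours (2.14 ± 0.47, adjusted p = 0.0138, and 0.0506 without tumour 19-23). Its spread among Balb/c tumours was mostly that of tumour 19-23.

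Gbp4, a guanylate-binding protein that acts against intracellular microbes, had 5457, 1126, 2077 and 3225 normalised counts in Balb/c tumours, against 262 to 491 in NSG tumours (2.67 ± 0.58, adjusted p = 0.0143). Its call and that of Gbp8 were lost without tumour 19-23 (adjusted p = 0.0875 and 0.0736) and without tumour 22 (0.0571 and 0.0604). Serpina3g, a serine protease inhibitor of the mouse, had 5029, 266, 1079 and 1957 in Balb/c tumours, against 27.4 to 111 in NSG tumours (3.95 ± 0.67, adjusted p = 0.00222). AW112010, an interferon-induced transcript, had 1263, 259, 389 and 781 in Balb/c tumours, against 51.4 to 137 in NSG tumours (2.49 ± 0.49, adjusted p = 0.0065). Both kept their call without any 1 tumour, and the order of the Balb/c tumours was again 19-23, 22, 21 and 20-24. Irf8, the transcription factor with the 2 GAS matches shown above, had 1691, 797, 1512 and 1689 in Balb/c tumours, against 307 to 635 in NSG tumours (1.51 ± 0.30, adjusted p = 0.00539). None of the 4 GTPases of the list whose windows pair GAS and ISRE letters passed the test. For Igtp, Tgtp1 and Tgtp2 the difference was nonetheless no smaller than that of Irf8. Igtp averaged 2628 normalised counts in Balb/c tumours and 759 in NSG tumours (difference 1.54, adjusted p = 0.103). Irgm2 averaged 2360 and 1026 (1.09, adjusted p = 0.211) in Balb/c and NSG tumours. Tgtp2 averaged 3925 in Balb/c tumours and 873 in NSG tumours (1.99, adjusted p = 0.0822). Tgtp1 averaged 3265 in Balb/c tumours and 684 in NSG tumours (2.05, adjusted p = 0.0772). Of 30 tested genes typical of the response to type I interferon 1 rose (3.33%, against 2.05% of all genes), a share near that of all genes. It was Ifi44l, with 338 to 1381 in Balb/c tumours, against 67.5 to 200 in NSG tumours (2.29 ± 0.48, adjusted p = 0.0106, and 0.0681 without tumour 19-23). The median of that list was 0.28, and its difference from the interferon-gamma list was not tested.

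Antigen presentation genes also varied among the Balb/c tumours. All 11 tested genes of the MHC class II list had positive differences, with a median of 1.57, and 3 rose (27.3%, against 2.05% of all genes). This number was 8 without tumour 21 and 5 without NSG tumour 9. H2-DMa, a chain of the chaperone that loads peptide onto class II molecules, had 1444, 646, 530 and 834 normalised counts in Balb/c tumours, against 176 to 356 in NSG tumours (1.57 ± 0.27, adjusted p = 0.00151). Ctss, the protease cathepsin S that trims the invariant chain, had 15983, 8260, 9951 and 13533 in Balb/c tumours, against 3122 to 6450 in NSG tumours (1.48 ± 0.25, adjusted p = 0.00161). The groups did not overlap for either gene, and both were called on 0.172% methionine, where H2-DMa differed by 1.07. The invariant chain Cd74 averaged 5370 in Balb/c tumours and 1257 in NSG tumours without passing the test (1.87, adjusted p = 0.0633), and H2-Aa, a classical class II chain, did not pass it either (1.76, adjusted p = 0.118). H2-Ea-ps, an entry of the class II E-alpha chain that depends on mouse strain, had 3248, 815, 400 and 1992 in Balb/c tumours, against 0 to 0.926 in NSG tumours. Of 21 tested class I and peptide-loading genes 2 rose (9.52%), the immunoproteasome subunits Psmb8 and Psmb10. The number was 0 without tumour 19-23, 1 without tumour 22, 1 without any 1 NSG tumour and 4 without tumour 20-24. Psmb10 had 4572, 1662, 1501 and 2135 in Balb/c tumours, against 943 to 1215 in NSG tumours (1.01 ± 0.23, adjusted p = 0.0153, and 0.05003 without tumour 19-23). Psmb8 lost its call on leaving out any of 8 of the 10 tumours, with an adjusted p of up to 0.242.

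Genes that most leukocytes express were present in tumours of both hosts, and several were higher in Balb/c tumours. Lymphocytes are among these leukocytes, so in bulk tissue such rises cannot be assigned to other leukocytes. Of 16 such genes 8 rose (50%, against 2.05% of all genes), 4 without tumour 19-23 and 12 without tumour 20-24. Ptprc (CD45) had 1636, 1500, 1619 and 2308 normalised counts in Balb/c tumours, against 660 to 1186 in NSG tumours (1.01 ± 0.23, adjusted p = 0.0164, and 0.0573 without tumour 19-23 and 0.0842 without tumour 22). Tyrobp, an adaptor of myeloid and NK receptors, had 4077, 2258, 2318 and 3198 in Balb/c tumours, against 1062 to 1838 in NSG tumours (1.08 ± 0.22, adjusted p = 0.00554). Cd52, a leukocyte surface glycoprotein, had 1251, 499, 551 and 766 in Balb/c tumours, against 111 to 330 in NSG tumours (1.76 ± 0.34, adjusted p = 0.00528). These 3 genes lay above every NSG tumour in all 4 Balb/c tumours. On 0.172% methionine their differences were 0.65, 0.66 and 1.08, and none of the 3 was called there (adjusted p = 0.117, 0.0806 and 0.0748), while the difference between diets was not called either (adjusted p = 0.821 for each). Balb/c tumour 17 was the lowest of its group on that diet for all 3 genes, and its part in these differences was not tested.

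Of the monocyte list 6 of 16 genes rose (37.5%, against 2.05% of all genes), 2 without tumour 19-23 and 4 without tumour 22. Of the macrophage list 5 of 22 rose (22.7%), 2 without tumour 19-23 or without tumour 22. The macrophage number was 3 without NSG tumour 7, 8 or 11 and 8 without NSG tumour 12. Negative differences were found for 3 monocyte and 5 macrophage genes, and 2 macrophage genes were lower at an unadjusted p under 0.05. Summed normalised counts overlapped between hosts for both lists. They were 150434 to 212804 in Balb/c tumours for the macrophage list, against 163860 to 269884 in NSG tumours. For the monocyte list they were 100495 to 126197, against 92907 to 169463. Ms4a6d, a membrane protein of monocytes and macrophages, had 6560, 3889, 3341 and 4402 normalised counts in Balb/c tumours, against 1625 to 2732 in NSG tumours (1.08 ± 0.18, adjusted p = 8.27e-04). Fcgr4, an activating IgG receptor of non-classical monocytes, had 2282, 234, 672 and 1232 in Balb/c tumours, against 72.1 to 166 in NSG tumours (2.44 ± 0.54, adjusted p = 0.0156, 0.0681 without tumour 22 and 0.0944 without tumour 19-23). It followed the order seen for Cxcl9. Ccr2, the chemokine receptor of inflammatory monocytes, did not: it had 2664, 2556, 734 and 1349 in Balb/c tumours, against 197 to 927 in NSG tumours, and the groups overlapped (1.88 ± 0.40, adjusted p = 0.0109, and 0.0691 without tumour 19-23). Apoe, the lipid carrier that macrophages secrete, was even among the hosts' tumours, with 20727, 15627, 14817 and 15940 in Balb/c tumours, against 2062 to 6578 in NSG tumours (2.23 ± 0.36, adjusted p = 0.00127). Its difference on 0.172% methionine was also 2.23. Trem2, a lipid receptor of macrophages, had 1061 to 1369 in Balb/c tumours, against 422 to 639 in NSG tumours (1.09 ± 0.21, adjusted p = 0.00449). The general macrophage marker Adgre1 (F4/80) had 2049 to 2846 in Balb/c tumours and 1176 to 2942 in NSG tumours, which overlapped (0.40 ± 0.27, adjusted p = 0.617).

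Genes of macrophage activation varied widely among the Balb/c tumours. Of 24 tested 3 rose (12.5%, against 2.05% of all genes). The number was 1 without Balb/c tumour 19-23, 21 or 22 or NSG tumour 7, 8, 10 or 11, and 5 without Balb/c tumour 20-24. Negative differences were found for 4 of the 24 genes, 1 of them lower at an unadjusted p under 0.05. Acod1, which makes itaconate, had 720, 31.1, 320 and 313 normalised counts in Balb/c tumours, against 14.8 to 83.3 in NSG tumours (2.26 ± 0.56, adjusted p = 0.033). Its call was lost on leaving out any of 8 of the 10 tumours, with an adjusted p of 0.18 without tumour 19-23. Ccl24, an eosinophil chemoattractant, had 283, 68.7, 61.8 and 114 in Balb/c tumours, against 6.48 to 20.5 in NSG tumours, and held throughout (1.88 ± 0.27, adjusted p = 2.69e-04). Arg1, which splits arginine into ornithine and urea, had 8794, 739, 7390 and 4412 in Balb/c tumours, against 1429 to 3723 in NSG tumours, so tumour 20-24 lay below every NSG tumour (1.01 ± 0.57, adjusted p = 0.513). Nos2, inducible nitric oxide synthase, had 1469, 114, 342 and 249 in Balb/c tumours, against 76.6 to 283 in NSG tumours (1.15 ± 0.47, adjusted p = 0.283). Arg1 was called without tumour 20-24 (1.79, adjusted p = 0.0367). Arg2, the mitochondrial arginase, had 298, 40.2, 116 and 150 in Balb/c tumours, against 15.8 to 26.9 in NSG tumours, and rose (1.68 ± 0.25, adjusted p = 3.74e-04). Ido1, which degrades tryptophan and is induced by interferon-gamma, had 61.7, 3.44, 17.7 and 142 in Balb/c tumours, against 0 to 6.91 in NSG tumours (1.58 ± 0.39, adjusted p = 0.0309, and 0.151 without tumour 19-23), and lost its call on leaving out any of 6 of the 10 tumours.

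Of the dendritic cell list 5 of 22 genes rose (22.7%, against 2.05% of all genes), among them Irf8 already described. The number was 3 without tumour 19-23 or without tumour 22. Negative differences were found for 5 of the 22 genes, 1 of them lower at an unadjusted p under 0.05. Itgax (CD11c) had 311, 186, 337 and 392 normalised counts in Balb/c tumours, against 68.1 to 184 in NSG tumours (1.32 ± 0.28, adjusted p = 0.00982, and 0.052 without tumour 22). Irf4, a transcription factor of dendritic cells and activated lymphocytes, had 38.4 to 62.5 in Balb/c tumours, against 13.9 to 26.7 in NSG tumours (0.75 ± 0.14, adjusted p = 0.00254). The markers of conventional type 1 dendritic cells Xcr1 and Clec9a did not pass the test. Of 18 complement genes 3 rose (16.7%), 0 without tumour 19-23, 1 without tumour 22 and 5 without NSG tumour 12. Another 3 of the 18 had negative differences, 1 of them lower at an unadjusted p under 0.05. C3ar1, the receptor for the C3a fragment, had 2849 to 3825 in Balb/c tumours, against 1446 to 2570 in NSG tumours (0.89 ± 0.19, adjusted p = 0.00913, and 0.0582 without tumour 19-23). Of 22 chemokine ligands for myeloid cells 3 rose (13.6%). The number was 1 without tumour 19-23, 1 without tumour 22, 5 without tumour 20-24 and 6 without NSG tumour 12. Ccl9, a chemokine for CCR1-bearing leukocytes, had 7935, 3512, 3946 and 5226 in Balb/c tumours, against 1753 to 2946 in NSG tumours (1.11 ± 0.19, adjusted p = 0.00125).

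Granulocyte genes were led by 1 tumour. Of 20 neutrophil genes 2 rose (10%, against 2.05% of all genes). The number was 1 without Balb/c tumour 19-23 or 22 or NSG tumour 7, 8 or 11, and 4 without Balb/c tumour 20-24. Negative differences were found for 6 of the 20 genes, 1 of them lower at an unadjusted p under 0.05. The summed normalised counts of the list were 13728 in tumour 19-23. The other 3 Balb/c tumours had 1256 to 2745, against 1055 to 1773 in NSG tumours. Csf3r, the receptor for the neutrophil growth factor G-CSF, had 1050, 233, 289 and 371 in Balb/c tumours, against 68.4 to 151 in NSG tumours, and kept its call without tumour 19-23 (1.60 ± 0.31, adjusted p = 0.00475). The haemoglobin-led red blood cell list was also highest in tumour 19-23, and its part in these results was not tested. Of 18 genes of mast cells, basophils and eosinophils 3 rose (16.7%), 2 without tumour 19-23 and 1 without tumour 22. Tpsab1, the mast cell tryptase, had 362, 231, 412 and 705 in Balb/c tumours, against 32.3 to 97.6 in NSG tumours (2.26 ± 0.42, adjusted p = 0.00366), and its difference was 3.10 on 0.172% methionine. Kit, the stem cell factor receptor of mast cells, had 234, 164, 349 and 360 in Balb/c tumours, against 62.1 to 139 in NSG tumours (1.14 ± 0.25, adjusted p = 0.0112, and 0.0632 without tumour 22). The mast cell proteases Cpa3 and Cma1 did not pass the test (differences 0.55 and 0.55).

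**Figure D3:**
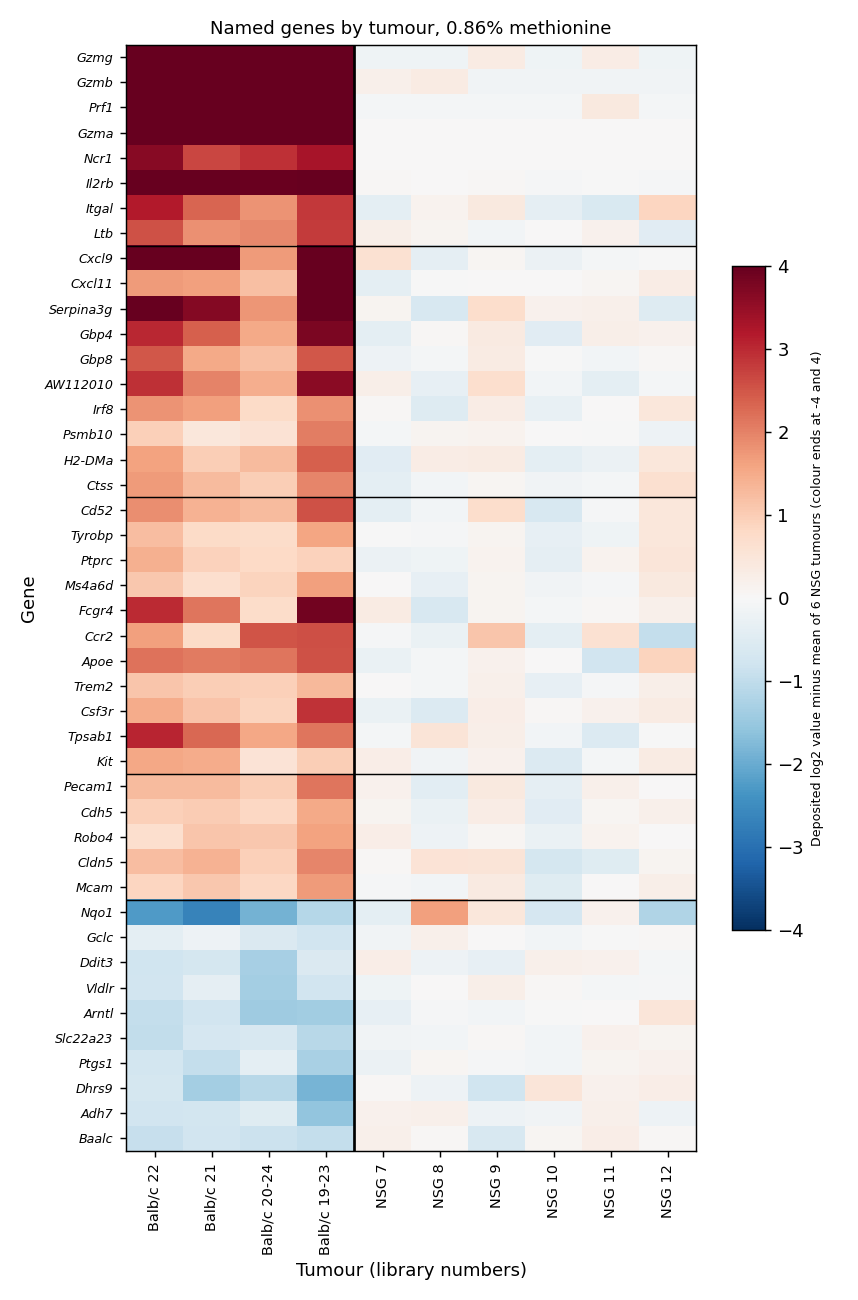
Deposited log2 value of named genes in each of 4 Balb/c and 6 NSG tumours on 0.86% methionine, as the difference from the mean of the 6 NSG tumours; columns are tumours by library number and lines part lymphocyte, interferon and MHC, myeloid and mast, vessel and lower genes. Within the Balb/c columns, tumour 20-24 is palest for Cxcl9, Serpina3g, Gbp4 and Fcgr4, and tumour 19-23 is darkest for the 5 vessel genes.

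Blood vessel genes formed the largest called group outside the leukocytes among the lists examined. Of 20 tested endothelial genes 11 rose (55%, against 2.05% of all genes) and 0 fell. Their median difference was 0.95 on 0.86% methionine and 0.56 on 0.172%. The count was 8 without tumour 19-23 and 10 to 12 without each other tumour, and 7 when the fit held the 2 compared groups alone. Pecam1 (CD31), the adhesion molecule of endothelial junctions, had 4042, 1772, 2175 and 2194 normalised counts in Balb/c tumours, against 651 to 1165 in NSG tumours (1.42 ± 0.23, adjusted p = 0.00111). Cdh5 (VE-cadherin) had 2983, 1840, 2106 and 2023 in Balb/c tumours, against 748 to 1288 in NSG tumours (1.07 ± 0.18, adjusted p = 0.00126). Robo4, a guidance receptor of endothelium, had 849, 573, 586 and 427 in Balb/c tumours, against 206 to 312 in NSG tumours (1.12 ± 0.17, adjusted p = 3.78e-04). Cldn5, a tight-junction claudin, had 295, 134, 192 and 169 in Balb/c tumours, against 24.1 to 91.2 in NSG tumours (1.39 ± 0.23, adjusted p = 8.19e-04). For these 4 genes every Balb/c tumour lay above every NSG tumour, tumour 19-23 was highest, and the call was kept without any 1 tumour. On 0.172% methionine Pecam1, Cdh5, Robo4 and Cldn5 were called as well (1.18, 0.80, 0.60 and 1.17). The tip-cell genes Esm1 and Apln did not pass the test (-0.32 and 0.25). Pecam1 is also expressed by some leukocytes, while Cdh5 and Cldn5 are more restricted to endothelium. Mcam (CD146), of pericytes and endothelium, had 2084 to 3784 in Balb/c tumours, against 818 to 1491 in NSG tumours (1.11 ± 0.19, adjusted p = 0.00125). The separate list of lymphatic endothelium and venules had a median difference of -0.01, with 6 of 12 genes negative. Of these 12 genes 2 rose (16.7%), 0 without tumour 19-23 and 1 without tumour 22. Icam1, through which leukocytes adhere to activated endothelium, was 1 of the 2. It had 278 to 578 in Balb/c tumours, against 138 to 260 in NSG tumours (1.01 ± 0.23, adjusted p = 0.0116, and 0.0844 without tumour 19-23), and also lost its call without tumour 22.

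Connective tissue did not follow. Of 20 fibroblast genes and 20 collagens 0 were called by limma and 0 by voom, with 3 genes of each list at an unadjusted p under 0.05. The collagen list instead split the Balb/c tumours: its summed normalised counts were 380908, 245846, 117829 and 133386 in tumours 19-23, 20-24, 21 and 22, against 121283 to 203009 in NSG tumours. Tumours 19-23 and 20-24 thus lay above the NSG range and tumour 21 below it. Of 22 matrix-remodelling genes 2 rose (9.09%, against 2.05% of all genes) and 1 fell (0.484% of all genes fell), with a median difference of 0.22. The rises were Adamts4 and Mmp8, and 1 rose without tumour 19-23 or without tumour 22. Adamts4 had 1195, 523, 990 and 917 in Balb/c tumours, against 313 to 554 in NSG tumours, and the groups overlapped (0.95 ± 0.19, adjusted p = 0.00482). Mmp11, a stromal metalloproteinase, fell, with 503 to 603 in Balb/c tumours, against 666 to 1099 in NSG tumours (-0.69 ± 0.14, adjusted p = 0.00535).

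Metabolic genes moved in small numbers. Of 16 genes of fatty acid uptake and oxidation 4 rose (25%, against 2.05% of all genes), 2 without Balb/c tumour 19-23 or NSG tumour 11 or 12. Ucp2, a mitochondrial carrier abundant in leukocytes, had 9489, 6004, 4775 and 6359 normalised counts in Balb/c tumours, against 2907 to 4058 in NSG tumours (0.84 ± 0.16, adjusted p = 0.00303). Cpt1a, the enzyme that admits fatty acids to mitochondria, had 4472, 4487, 3949 and 4543 in Balb/c tumours, against 2525 to 3526 in NSG tumours (0.55 ± 0.12, adjusted p = 0.00757). The Cpt1a difference on 0.172% methionine was 0.03 (adjusted p = 0.991), and the difference between diets did not pass (adjusted p = 0.513). Angptl4, a lipase inhibitor that hypoxia and fatty acids induce, had 9075, 4451, 2574 and 2938 in Balb/c tumours, against 980 to 2189 in NSG tumours (1.40 ± 0.32, adjusted p = 0.0191, and 0.106 without tumour 19-23). It was the 1 called gene of 20 on the hypoxia list, whose median was -0.09. Pfkfb3, which drives glycolysis through fructose 2,6-bisphosphate, had 1435, 323, 1105 and 972 in Balb/c tumours, against 217 to 537 in NSG tumours (1.24 ± 0.30, adjusted p = 0.0234, and 0.151 without tumour 19-23), and lost its call on leaving out any of 5 of the 10 tumours. Pfkfb3 and Pfkp were the 2 called genes of 18 on the glycolysis list (11.1%), whose median was 0.004, with 9 genes negative. Scd1, the desaturase that makes monounsaturated fatty acids, fell, with 6945, 9377, 16316 and 14564 in Balb/c tumours, against 16324 to 21990 in NSG tumours (-0.70 ± 0.16, adjusted p = 0.0172). Tumour 21 lay just under the lowest NSG tumour, and the adjusted p was 0.11 without tumour 19-23 and 0.0638 without tumour 20-24. Scd1 was the 1 called gene of 22 on the sterol and fatty acid synthesis list, whose median was -0.18 (0.484% of all genes were called lower).

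**Figure D4:**
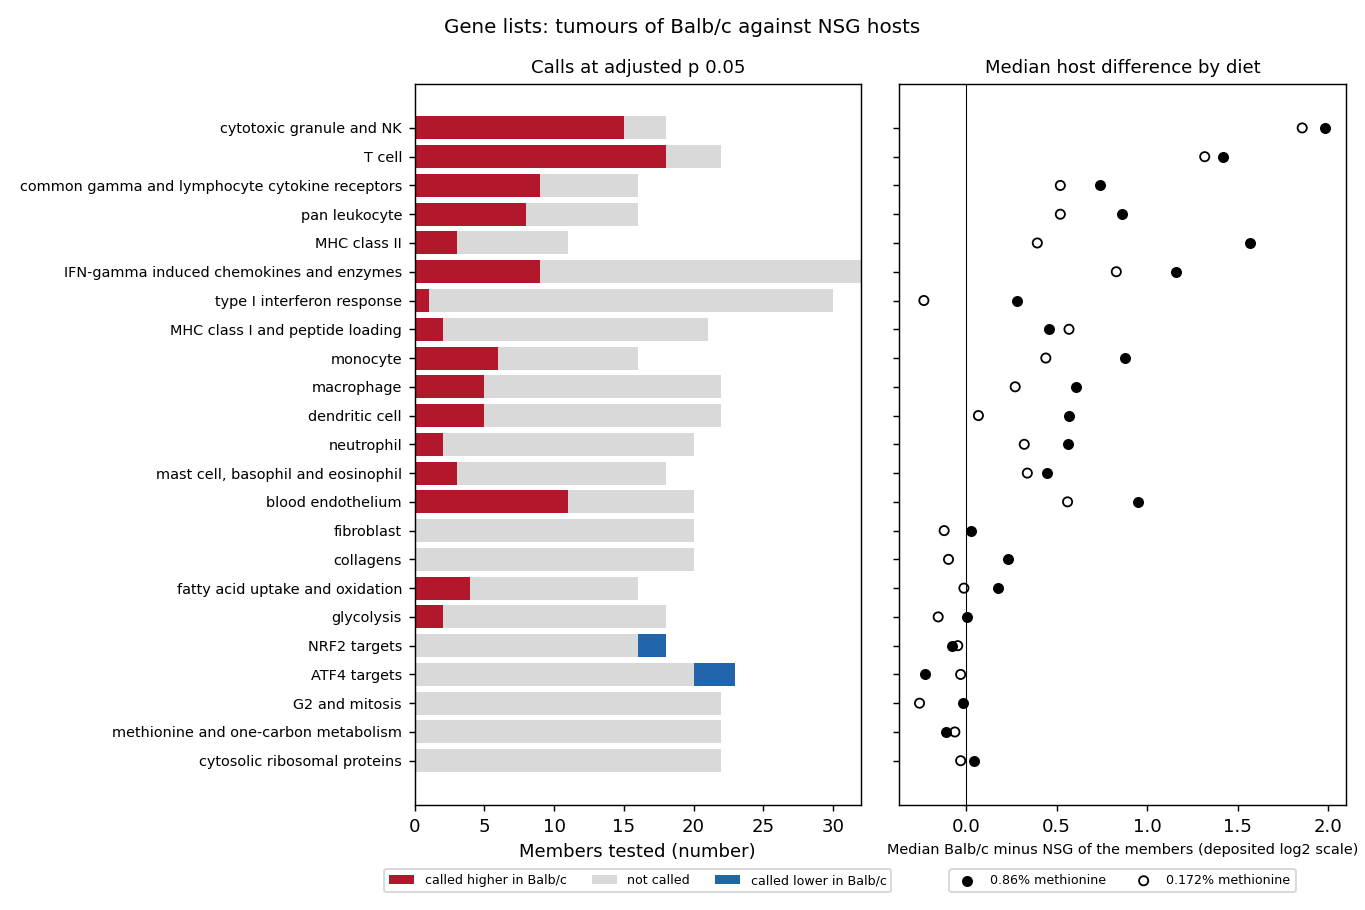
Left, number of tested members of 23 gene lists that were called higher in Balb/c tumours (red), not called (grey) or called lower (blue) on 0.86% methionine; right, median difference between Balb/c and NSG tumours of each list (deposited log2 scale) on 0.86% methionine (filled) and 0.172% methionine (open). Calls gather in the lymphocyte, leukocyte and endothelial lists, and the lists of mitosis, ribosomal proteins and methionine metabolism lie near 0 with no call on 0.86% methionine.

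The falls were smaller and less stable than the rises. Among called genes with a mean deposited value of 8 or more, the furthest fall was that of Nqo1, a quinone reductase that the stress factor NRF2 induces, with 151, 77.0, 34.2 and 54.3 normalised counts in Balb/c tumours, against 143 to 1232 in NSG tumours (-1.99 ± 0.50, adjusted p = 0.0377). The groups overlapped, NSG tumours alone spread over a wide range, and the call was lost on leaving out any of 6 of the 10 tumours, with an adjusted p of up to 0.113: NSG tumours 8, 9 and 11 and Balb/c tumours 20-24, 21 and 22. Gclc, the catalytic subunit of the first step of glutathione synthesis, fell by less with less spread, with 1419, 1618, 2119 and 1867 in Balb/c tumours, against 2202 to 2837 in NSG tumours (-0.49 ± 0.10, adjusted p = 0.00711). It was called whichever tumour was left out. The other 16 of 18 NRF2 target genes did not pass the test, Gclm and Hmox1 included (-0.09 and 1.28). Of 23 ATF4 targets, genes of the response to amino acid shortage and stress, 3 fell (0.484% of all genes were called lower) and 22 had a negative difference, with a median of -0.23, and without tumour 20-24 1 fell and 1 rose. Ddit3 (CHOP) had 2006, 1156, 1823 and 1691 in Balb/c tumours, against 2349 to 3563 in NSG tumours (-0.85 ± 0.20, adjusted p = 0.0168, and 0.0681 without tumour 20-24). Sesn2, a leucine sensor that restrains mTORC1, had 1124 to 1324 in Balb/c tumours, against 1570 to 2197 in NSG tumours (-0.60 ± 0.15, adjusted p = 0.0289), and lost its call on leaving out any of 6 of the 10 tumours. Vldlr, a lipoprotein receptor, had 4169, 2753, 5566 and 4200 in Balb/c tumours, against 6334 to 8478 in NSG tumours (-0.81 ± 0.19, adjusted p = 0.0147, and 0.0573 without tumour 19-23 and 0.0621 without tumour 20-24). Asns, asparagine synthetase and a standard ATF4 target, had 10464 to 11689 in Balb/c tumours and 10627 to 15878 in NSG tumours and did not pass the test (-0.23, adjusted p = 0.666).

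Arntl (BMAL1), the core activator of the circadian clock, fell, with 370, 364, 587 and 509 normalised counts in Balb/c tumours, against 803 to 1460 in NSG tumours (-1.14 ± 0.23, adjusted p = 0.00528). The groups did not overlap and the call was kept without any 1 tumour. Cry1, a clock repressor looked at after the values had been seen, was higher in Balb/c tumours, with 874, 799, 995 and 1009 in Balb/c tumours, against 470 to 622 in NSG tumours (0.73 ± 0.15, adjusted p = 0.00581). Of 9 other clock genes chosen in the same way 0 were called by limma, among them Per2 (0.71, adjusted p = 0.349), Nr1d1 (-0.69, adjusted p = 0.258) and Clock (-0.50, adjusted p = 0.0949). The labels give no hour of tumour collection, so hosts and collection times cannot be told apart for these genes. On 0.172% methionine the Arntl difference was 0.34 (adjusted p = 0.511) and the difference between diets did not pass (adjusted p = 0.265).

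Further genes among the 15 furthest falls at that level were of mixed kinds. Dhrs9, a retinol and steroid dehydrogenase, had 661, 1127, 949 and 1511 normalised counts in Balb/c tumours, against 1421 to 3461 in NSG tumours (-1.26 ± 0.30, adjusted p = 0.0228, and 0.142 without tumour 19-23), and the groups overlapped. Adh7, an alcohol and retinol dehydrogenase, had 1003, 2178, 1853 and 1821 in Balb/c tumours, against 2650 to 3568 in NSG tumours (-0.89 ± 0.19, adjusted p = 0.00977, and 0.0631 without tumour 19-23). Ptgs1, cyclooxygenase 1 of prostaglandin synthesis, had 2311, 4331, 2945 and 3465 in Balb/c tumours, against 4913 to 6397 in NSG tumours (-0.85 ± 0.20, adjusted p = 0.0199, and 0.142 without tumour 19-23), and also lost its call without tumour 21. Adh7 and Ptgs1 lay below every NSG tumour in all 4 Balb/c tumours. Slc22a23, a solute carrier of unassigned substrate, had 535, 741, 733 and 583 in Balb/c tumours, against 1073 to 1333 in NSG tumours (-0.85 ± 0.20, adjusted p = 0.0175, 0.0718 without tumour 22 and 0.109 without tumour 19-23). Baalc, a gene of neural and blood progenitor cells, had the narrowest spread of these among the Balb/c tumours, with 142, 151, 166 and 144 in Balb/c tumours, against 185 to 366 in NSG tumours (-0.88 ± 0.18, adjusted p = 0.00457), and kept its call without any 1 tumour. Its NSG values were wider apart. The differences of Ndst4, Csn3, Angptl6, Gask1b, Spry4 and Gramd1b were -1.38, -1.18, -0.94, -0.86, -0.82 and -0.76, with adjusted p from 0.0177 to 0.0469. Each of these 6 genes lost its call on leaving out at least 2 of the tumours in turn.

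**Figure D5:**
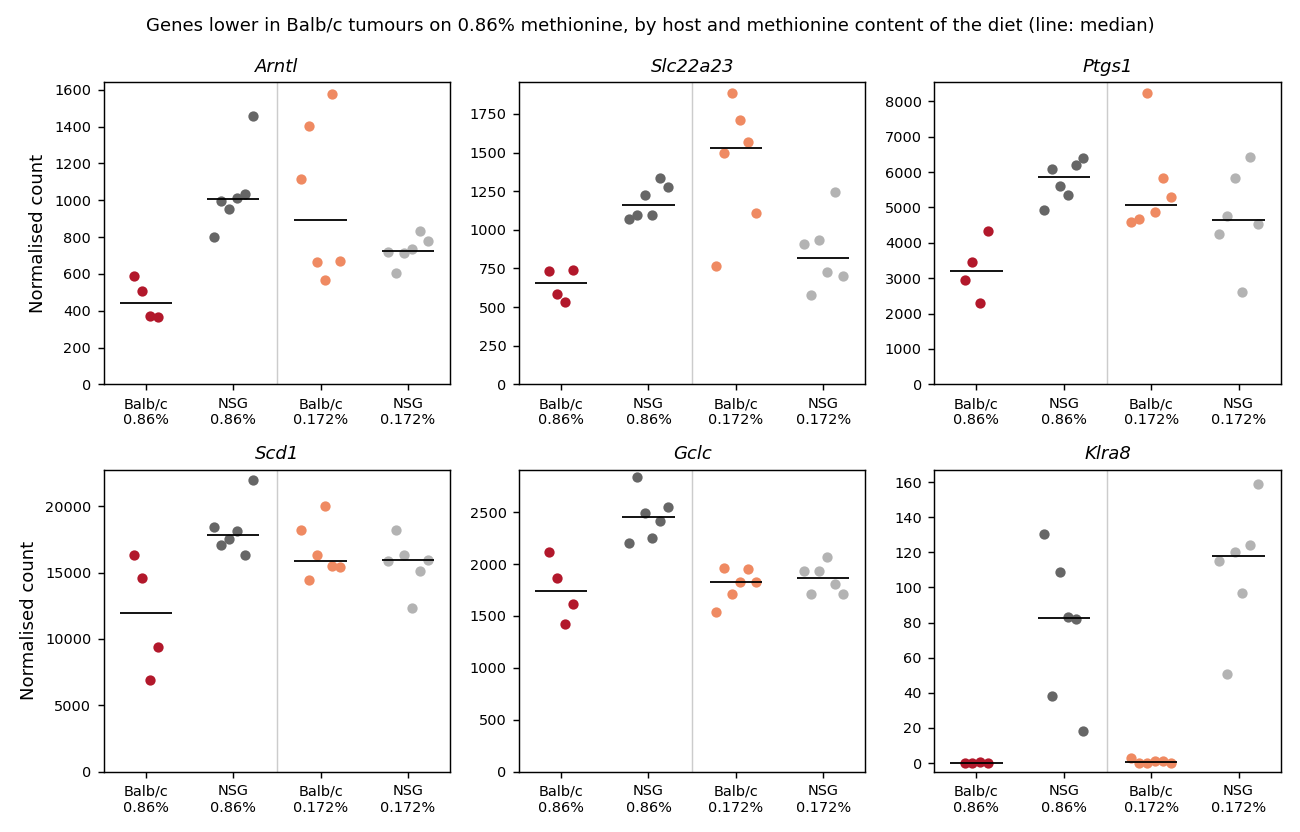
Normalised counts of 6 genes called lower in Balb/c than in NSG tumours on 0.86% methionine, shown for Balb/c and NSG tumours on 0.86% and on 0.172% methionine; points are tumours and lines medians. In all 6 genes every Balb/c tumour lies below every NSG tumour on 0.86% methionine; on 0.172% methionine the groups overlap for each gene except Klra8, which is near 0 in Balb/c tumours on both diets.

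A few genes separated the hosts on both diets by presence. Klra8, an NK receptor gene of the variable Ly49 family, had 0 to 0.443 normalised counts in Balb/c tumours, against 18.5 to 130 in NSG tumours, and BC018473 had 0 in every Balb/c tumour, against 19.1 to 76.0 in NSG tumours. With at most 2 counts in every library of one host and at least 20 in every library of the other, over all 24 libraries, the genes were Klra8 and BC018473 for absence in Balb/c tumours, and H2-Ea-ps, Gzma and Prf1 for absence in NSG tumours. Strain and immune deficiency cannot be told apart for them. Lgr5, a Wnt target of intestinal stem cells, was low in both hosts and fell, with 0.327 to 1.84 in Balb/c tumours, against 5.56 to 26.7 in NSG tumours (-0.95 ± 0.20, adjusted p = 0.00824, and -1.43 on 0.172% methionine, adjusted p = 3.31e-05). It was the 1 called gene of 18 on the list of Wnt targets and intestinal stem cells, whose median was -0.11 (0.484% of all genes were called lower). On 0.172% methionine 1 gene of that list was called higher and 2 lower.

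Growth and methionine metabolism gave no called gene between hosts on this diet. Of 22 genes of G2 and mitosis 0 were called (0 at an unadjusted p under 0.05), and of 22 genes of DNA replication 0 (2 at an unadjusted p under 0.05). Mki67, the proliferation antigen, had 7266 to 15522 normalised counts in Balb/c tumours and 8481 to 16163 in NSG tumours (-0.03 ± 0.21, adjusted p = 1). Of 22 genes of methionine and one-carbon metabolism 0 were called (2 at an unadjusted p under 0.05), with differences of -0.35 to 0.29. Mat2a, which makes S-adenosylmethionine, had 6966, 12400, 7223 and 7273 in Balb/c tumours, against 8712 to 12071 in NSG tumours (-0.31 ± 0.16, adjusted p = 0.464), so tumour 20-24 stood above the rest of its group. Of 22 cytosolic ribosomal protein genes and 13 mitochondrially encoded genes 0 were called (0 and 1 at an unadjusted p under 0.05). The summed normalised counts of the ribosomal protein list were 1279125, 767238, 1104390 and 1065749 in Balb/c tumours 19-23, 20-24, 21 and 22, against 917325 to 1099994 in NSG tumours. Tumours 19-23 and 21 thus lay above the NSG range and tumour 20-24 below it, and the part of this spread in the other results was not tested. Voom called 0 genes of each of these 5 lists. A p that misses the threshold does not show that these genes were equal in both hosts.

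The host difference was set beside that of the restricted diet. On 0.172% methionine 796 genes were called (2.09%), 548 higher (1.44%) and 248 lower (0.652%) in Balb/c tumours. Of the 779 rises on 0.86% methionine 756 were positive on the restricted diet and 331 were called higher there. Of the 184 falls 142 were negative there and 45 were called lower. For the difference between diets in the host effect limma called 0 genes, with 2447 at an unadjusted p under 0.05 and a smallest adjusted p of 0.0987, of Slc22a23. Voom also called 0, and other settings called 0 to 3. Slc22a23 differed by -0.85 on 0.86% methionine and by 0.71 on the restricted diet (adjusted p = 0.0335), where it had 764 to 1887 in Balb/c tumours, against 576 to 1244 in NSG tumours. Of the 53 lists, MHC class II had the widest gap between diets in its median, at 1.57 on 0.86% and 0.39 on 0.172% methionine, and this gap was not tested. The dendritic cell list had a median of 0.57 on 0.86% and 0.07 on 0.172% methionine. Cytotoxic and T cell lists had medians of 1.98 and 1.42 on 0.86% methionine and of 1.86 and 1.32 on 0.172%. Among the Balb/c tumours on 0.172% methionine, tumour 17 was far below the others for some genes. Gzmg had 46.3 normalised counts there (others 1807 to 17765), Prf1 23.2 (others 821 to 5349), Ncr1 9.47 (others 50.7 to 174) and Cxcl9 48.4 (others 339 to 1752). Apoe, at 13289, lay within the others (6426 to 18447). No tumour of the restricted diet was left out in turn, so the part of tumour 17 was not tested.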

How the data were processed

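RNA was sequenced from 24 libraries of CT26.WT allografts. The deposited table holds 1 log2 value per gene and library. Per the submitters' processing notes STAR, featureCounts, DESeq2 and mm10 were used; the sources used here give no versions and no strand setting. The labels' extract protocol names a poly(A) kit and the series' design text a stranded kit, so values of overlapping genes and antisense partners are uncertain. The lowest deposited log2 value, 4.0711, stands for a count of 0, so differences of low genes are compressed. Solving the scale gave normalised counts, of which 100% were whole reads within 0.01 once rescaled by library. 26 rows whose names had become dates were left out.

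Libraries 19 and 23, and 20 and 24, were averaged. The deposited log2 values of 22 tumours were fitted with limma 3.58.1 (R 4.3.3; 4 group means, trend and robust eBayes), and p-values were adjusted (Benjamini-Hochberg) over 38019 genes with a count above 0. Called means an adjusted p under 0.05, and differences are Balb/c minus NSG with their standard error. The fit was also tested on simulated data for this comparison, with 36102 genes. It recovered 48% of 1.5-fold, 86% of 2-fold, 94% of 4-fold and 100% of 8-fold changes among genes of at least 50 mean counts. Of the calls 6.82% were false. Each simulated gene was drawn on its own, with 1 spread for all groups. In the data, Balb/c tumours kept the same order across genes such as Cxcl9, Serpina3g and Fcgr4, so these rates may not hold there. The members and lists were chosen with earlier results of these data known. Named genes are the 15 largest called changes each way with a mean deposited value of 8 or more, up to 4 called genes of each of 53 lists, a fixed panel, and genes said to be chosen after their values were seen. List members named as not passing the test, such as Cd74, Igtp, Irgm2, Tgtp1, Tgtp2, H2-Aa, Xcr1, Clec9a, Cpa3, Cma1, Esm1, Apln, Gclm and Hmox1, also lie outside that rule and were picked with their values in view. 22 alternatives were run, voom on recovered counts among them. Promoter windows came from RefSeq.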

Additional observations from a re-analysis of the deposited data

Results flagged for a closer look

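In 178 sets of values (89 genes, 4 Balb/c and 6 NSG tumours each) 11 held 1 tumour far from the others of its group by Dixon's criterion, where chance gives about 1 in 20, or 8.9. Of the 11, those of Klra8, Prf1 and Trdc rest on a group with 0 in every other tumour, where any read at all meets the criterion. All values are normalised counts on 0.86% methionine. Among Balb/c tumours, Irf8 was lowest in tumour 20-24 at 797.4 (others 1512 to 1691), C1qc, a chain of complement C1q, was highest in tumour 22 at 9606 (others 7181 to 7486) and Cpt1a was lowest in tumour 21 at 3949 (others 4472 to 4543). Mat2a was highest in tumour 20-24 at 12400 (others 6966 to 7273). Klra8 was highest in tumour 19-23 at 0.4434, with 0 in the others.

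Among NSG tumours, tumour 12 was highest for C1qc at 6468 (others 3515 to 4156), for Arg1 at 3723 (others 1429 to 1942) and for Acod1 at 83.32 (others 14.82 to 28.28), which are 3 genes of macrophages. Baalc was lowest in tumour 9 at 184.5 (others 311.9 to 366.1). Prf1 was highest in tumour 11 at 1.657 and Trdc in tumour 10 at 0.9263, with 0 in the others.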

How the results depend on the processing

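On 0.86% methionine, where 963 genes were called, the count was 515 with every named gene in the fit, 1673 with library weights and 1824 with the 24 libraries kept apart, in which the near-identical pairs count as separate tumours. Leaving out 1 tumour gave 526 to 1157 calls. The lowest counts were 526 without Balb/c tumour 19-23, 620 without Balb/c tumour 22 and 670 without NSG tumour 8. On 0.172% methionine, where 796 were called, the count was 385 with every named gene and 1394 with library weights. For the difference between diets limma called 0, and 1 each with a minimum value of 5 in 4 tumours, with every named gene, without trend and robust eBayes, or with library weights, 2 with the 24 libraries kept apart and 0 to 3 when 1 tumour was left out, with 3 without Balb/c tumour 19-23. Beyond the number of tests or tumours that these settings change, the cause was not tested. Centring on library medians gave 850 higher and 151 lower calls, against 779 and 184. Of 139 called named genes 73 kept the call under all 22 alternatives and 0 changed sign. Without Balb/c tumour 19-23 84 of the 139 kept it, without tumour 22 100, and with the fit on the 2 compared groups alone 118. With 4 Balb/c tumours, folds near 1.5 were often missed in simulated data. No paired analysis was possible because the groups share no replicate numbers in the labels.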

Other observations

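Some genes outside the naming rule, chosen after their values were seen, also separated the hosts. Slc16a14, a member of the monocarboxylate transporter family, had 0.598, 9.07, 0 and 0 normalised counts in Balb/c tumours 19-23, 20-24, 21 and 22, against 53.8 to 103.7 in NSG tumours (-2.35 by limma), and its difference on 0.172% methionine was -1.80. Clec12a, an inhibitory lectin of myeloid cells, differed by 2.05, Gimap3, a GTPase of lymphocytes, by 2.52, Colec12, a scavenger receptor, by 1.77, Itgb3, an integrin chain of platelets and endothelium, by 1.61, and Tbx21, the T-bet factor of type 1 lymphocytes, by 1.62, each higher in Balb/c tumours.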
